A study of Mus musculus with 4 samples.

Results

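The Prame-like genes described here are 8 protein-coding mouse genes, Gm13119, Gm13078, Gm13057, Gm13043, Pramef25, Pramef6, Pramel6 and Pramel7, chosen by gene symbol among the 43496 Ensembl genes of the count table, and all 8 were found there. They were followed in the E14 line of pluripotent mouse embryonic stem cells, with the strain label 12910la, grown on gelatin with serum and LIF. Every culture received 1000 ng of a pSuper puro plasmid and, from 24 h later, 1 µg/ml puromycin for 4 days. In 2 libraries, labelled wild type and called random shRNA here, the title names a random knockdown. In the other 2, labelled MERVL knocked down and called MERVL shRNA here, the plasmid carried an shRNA against MuERVL, the endogenous retrovirus also written MERVL. The cells are a drug-selected transfected population of a single line, and no label states whether the replicates came from different cultures. The p-values therefore measure the spread between these 4 samples alone, which may be technical. Paired values below are given as replicate 1, then replicate 2 of a group.

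PRAME is a cancer-testis antigen, and its mouse relatives form a large, recently duplicated family of leucine-rich repeat proteins expressed mainly in germ cells and early embryos. Several of them are transcribed at zygotic genome activation in the 2-cell embryo, together with MERVL and the Zscan4 genes, and in the rare embryonic stem cells that pass through a 2-cell-like state. Pramel7 and Pramel6 are the best studied: PRAMEL7 is found in the inner cell mass, joins a CUL2 ubiquitin ligase, marks the DNA methylation cofactor UHRF1 for degradation and can hold embryonic stem cells in a naive state.

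The members lie at 2 loci of GRCm38. Gm13043 (chr4:143511343-143517831, plus strand), Gm13057 (chr4:143551709-143558234, plus), Gm13078 (chr4:143719455-143729158, plus), Pramef6 (chr4:143894237-143900380, minus), Pramef25 (chr4:143948580-143951016, minus) and Gm13119 (chr4:144357942-144364419, plus) share 853077 bp of chromosome 4. Pramel7 (chr2:87489087-87497093, minus) and Pramel6 (chr2:87506565-87510872, plus) are neighbours on chromosome 2, 9471 bp apart and pointing away from each other. RefSeq calls Gm13119 Pramel31, Gm13078 Pramel24, Pramef25 Pramel16 and Pramef6 Pramel11. The chromosome 4 genes fall into 2 sequence groups by their longest coding transcripts. Gm13119, Gm13057, Gm13043 and Pramef25 matched each other at 96.4% to 100% of aligned positions, and Gm13078 matched Pramef6 at 93.5%. The Pramel6 and Pramel7 transcripts matched each other at 63.6%, within the range of pairs from different groups (63.5% to 69.3%).

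The stretches upstream of the annotated starts follow these groups except for Pramef25, and they are printed because 3 of them carry an inverted pair of a short motif. Promoter windows of 250 bases before the RefSeq start (build GRCm38.p6) were found for all 8 members. That of Pramel7 (chr2:87492419-87492668) lies inside the span given above for this gene, downstream of the start given there. The windows were searched on both strands for TGATTNAAT, the core of the site bound by DUX. DUX is the transcription factor that turns on MERVL and 2-cell genes. The windows were also searched for TGCACAC, the motif of ZSCAN4, and for the exact letters TATAAA, a form of the TATA box. Capitals mark matches of TGATTNAAT and TATAAA, read 5′ to 3′ on the gene's strand, and none of the 6 stretches overlaps a gene of the count table in the GENCODE annotation.
Gm13119, chr4:144357789-144357901, plus: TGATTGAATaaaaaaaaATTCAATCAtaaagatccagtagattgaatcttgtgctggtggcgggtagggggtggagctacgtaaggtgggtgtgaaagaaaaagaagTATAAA
Gm13043, chr4:143511168-143511279, plus: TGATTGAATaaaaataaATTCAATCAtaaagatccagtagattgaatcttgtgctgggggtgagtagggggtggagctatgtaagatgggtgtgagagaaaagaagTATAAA
Gm13057, chr4:143551557-143551667, plus: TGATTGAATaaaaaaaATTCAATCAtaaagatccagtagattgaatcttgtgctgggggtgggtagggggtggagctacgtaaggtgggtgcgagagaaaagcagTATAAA
Pramel6, chr2:87506445-87506493, plus: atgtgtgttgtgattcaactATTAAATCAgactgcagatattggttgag

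In Gm13119 and Gm13043 the 2 matches were 8 bases apart and in Gm13057 7 bases, and TATAAA followed 80 or 81 bases after the second. These 3 windows were 93.6% to 94.8% identical, so the 3 pairs of matches are not independent occurrences, and the motifs were chosen after the windows had been seen. A match of TGATTNAAT was present in 0.658% of 32851 promoter windows of the same length and 2 or more matches in 0.0517%. TATAAA was present in 12.4%. TGCACAC, present in 3.67% of windows, was in none of the 8. Pramel6 had a single TGATTNAAT match, and Gm13078, Pramef6, Pramef25 and Pramel7 had neither TGATTNAAT nor the exact letters TATAAA. Other forms of the TATA box were not searched for. For Pramel7 the window is a stretch inside its annotated gene. Pramef25, although its transcript resembles that of Gm13119, has 3 annotated exons against 4 and a window that matched that of Gm13119 at only 60.8% of aligned bases. A match is a description of the letters and not evidence of binding.

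Gm13078 and Pramef6 share a different upstream sequence (88.2% identity over the window). Capitals here mark a run of 50 bases that is identical in both and ends 1 and 5 bases before the start. The run holds TATATAA, which the search for the exact letters TATAAA leaves out.
Gm13078, chr4:143719371-143719450, plus: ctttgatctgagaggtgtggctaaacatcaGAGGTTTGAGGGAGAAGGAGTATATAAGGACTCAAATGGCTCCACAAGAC
Pramef6, chr4:143900385-143900464, minus: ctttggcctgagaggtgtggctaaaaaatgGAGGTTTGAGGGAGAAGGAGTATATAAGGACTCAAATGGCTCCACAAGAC

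The libraries held 11628887 to 16067854 estimated counts, so that 1 count was worth 0.0629 to 0.0839 CPM (counts scaled to library size with TMM factors). The targeted element, summed over its 2277 listed copies, stood at 4662 and 1434 CPM with random shRNA and at 1163 and 573.8 CPM with MERVL shRNA. The random shRNA libraries thus differed 3.25-fold in MERVL itself, and replicate 1 stood apart. All 8 stem cell markers examined, Pou5f1, Sox2 and Nanog among them, were present in each library. They summed to 7413 and 8507 CPM with random shRNA and to 8674 and 9423 CPM with MERVL shRNA. Of these markers, 5 were higher and 1 lower in both MERVL shRNA libraries. Of the 16353 features tested below, 3627 were higher and 3929 lower in both. Feeder or fibroblast markers summed to 30.3 and 32.4 CPM in the random shRNA libraries and to 11.5 and 10.1 CPM in the MERVL shRNA libraries (3 of 7 lower in both, Col3a1 and Postn at 0 in each library). For trophoblast, 4 of 5 markers were also lower in both, with sums of 19.6 and 35.8 against 18.9 and 20.5 CPM, beside 21.2% of all features with any count in that order. The part of these markers in the results below was not tested. Primitive endoderm markers (14.1 and 16.6 against 17.4 and 13.2 CPM) and oocyte markers (5.04 and 4.86 against 5.41 and 6.46 CPM) overlapped or stood slightly higher with MERVL shRNA.

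Summed over the 8 genes, Prame-like RNA stood at 88.7 and 44.7 CPM with random shRNA and at 28.1 and 22.7 CPM with MERVL shRNA. Mean levels were 66.7 ± 31.1 CPM and 25.4 ± 3.78 CPM (SD, n = 2 each), a ratio of 2.62. The groups did not overlap, but the lower random shRNA library was only 1.59-fold above the higher MERVL shRNA library, less than the 1.98-fold gap between the random shRNA libraries. Of the 8 members, 6 had both MERVL shRNA values below both random shRNA values, and these are the 6 genes of chromosome 4. That order was found in 21.2% of the 28030 features with any count. Gm13057 and Gm13043 are among these 6, but their few counts cannot be told apart, so they are not separate cases. Among the 6 members tested below, which leave Gm13057 and Gm13043 out, that order held in 4, beside 24% of the 16353 features tested. All 8 members were higher in random shRNA replicate 1 than in replicate 2 (50.1% of features tested). In bulk RNA, fewer cells in a 2-cell-like state and less RNA per such cell cannot be told apart.

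**Figure D1:**
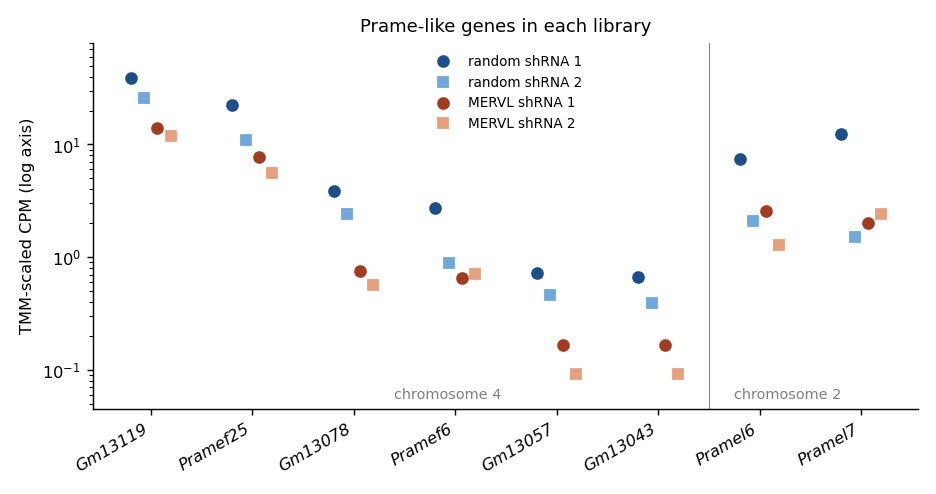
TMM-scaled CPM (log axis) of each Prame-like gene in the 4 libraries, 1 point per library, with genes of chromosome 4 left of the line and genes of chromosome 2 right of it. In each of the 6 chromosome 4 genes both MERVL shRNA points lie below both random shRNA points. Gm13057 and Gm13043 have the same MERVL shRNA values, and their counts cannot be told apart. Random shRNA replicate 2 lies between the MERVL shRNA points for Pramel6 and below both for Pramel7.

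The quasi-likelihood F test of edgeR across all 16353 features called 0 of the 6 members that passed its filter on low counts. In the whole table it called 1 feature, the gene Catip, which is 0.00612%, and none lower. At an unadjusted p under 0.05 it gave 3 members, all lower (8.92% of features). DESeq2 called 1 member, Gm13119 (1.11% of features called lower), and limma-voom 0. Without the filter on low counts edgeR called 5 of the 8 lower (3.76% of features). With the filter, 3 were called when random shRNA replicate 1 was left out (7.64%), 6 when its replicate 2 was left out (17.9%), and 0 when either library of the MERVL shRNA group was. The median log2 fold change of the 6 was -1.38, beside -0.01 over all features tested, and all 6 were negative (51.4% of features), also under each other scaling tried. Since a member can pass the filter through the group where it is higher, neither the median nor the count of signs supports a difference.

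Gm13119 was the most abundant member, with 605 and 310 estimated counts in the random shRNA libraries and 224 and 169 in the MERVL shRNA libraries. These were 38.6 and 26.0 CPM against 14.1 and 11.99 CPM. Its groups were clearly apart, with the lower random shRNA value 1.85-fold above the higher MERVL shRNA value and a gap of 1.48-fold within the random shRNA pair. The log2 fold change was -1.31 ± 0.23 (SE; edgeR adjusted p = 0.284). Without random shRNA replicate 1 it was -0.99 ± 0.16 and passed (edgeR adjusted p = 4.19e-08, with the lone library assumed to vary like the other group). Over the alternatives its adjusted p ranged from 1.05e-24 to 1, the highest being without MERVL shRNA replicate 2.

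Pramef25, the other abundant gene of that sequence group, stood at 22.3 and 10.9 CPM with random shRNA and at 7.67 and 5.61 CPM with MERVL shRNA. The 4 libraries thus kept the order seen for Gm13119, but random shRNA replicate 1 was 2.04-fold above replicate 2. The log2 fold change was -1.32 ± 0.37 (edgeR adjusted p = 0.329), and without random shRNA replicate 1 it was -0.71 ± 0.21 (edgeR adjusted p = 0.0108). Gm13119 and Pramef25 together made up 68.6% to 82.6% of the summed CPM of the members.

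Gm13057 and Gm13043 were close to the limit of detection and did not pass the filter. Gm13057 had 11.4 and 5.52 estimated counts with random shRNA and 2.66 and 1.30 with MERVL shRNA. Gm13043 had 10.4 and 4.64 counts with random shRNA and exactly the MERVL shRNA values of Gm13057. Every 100-base window of the Gm13057 transcript, and 99.3% of those of Gm13043, also occurs in a transcript of another gene, Gm13040, which carried 16.5 and 5.39 counts with random shRNA and again 2.66 and 1.30 with MERVL shRNA. The values of these 3 genes can therefore not be assigned to any of them, and only their sum can be read: 38.2 and 15.6 counts against 7.98 and 3.90, or 2.44 and 1.30 against 0.502 and 0.277 CPM. The sum was lower in both MERVL shRNA libraries, on few counts. By the same measure 14.0% of windows were shared with another gene for Gm13119, 26.5% for Pramef25, 18.4% for Pramef6 (mostly with Gm13083) and 1.74% for Gm13078. Pramel6 and Pramel7 shared no window of this length. Shorter shared stretches were not searched for.

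In the second sequence group, Gm13078 had the widest separation of the 8 genes. It stood at 60 and 29 counts (3.83 and 2.43 CPM) with random shRNA and at 12 and 8 counts (0.754 and 0.568 CPM) with MERVL shRNA. The lower random shRNA value was 3.22-fold above the higher MERVL shRNA value, more than the gap of 1.57-fold within the random shRNA pair. The log2 fold change was -2.23 ± 0.46 (edgeR adjusted p = 0.318). It passed without random shRNA replicate 1 (-1.86 ± 0.58, edgeR adjusted p = 0.0156), and its adjusted p ranged from 5.11e-07 to 1 over the alternatives.

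Pramef6, with a nearly identical upstream stretch, behaved differently among the random shRNA libraries. It had 43 and 10.5 counts (2.74 and 0.880 CPM) with random shRNA and 10.5 and 10 counts (0.660 and 0.710 CPM) with MERVL shRNA. Random shRNA replicate 1 alone was high, and the other 3 libraries lay within 0.660 to 0.880 CPM. Its log2 fold change was -1.44 ± 0.64 (edgeR adjusted p = 0.392) with all libraries and -0.33 without random shRNA replicate 1 (edgeR adjusted p = 0.84).

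Pramel7, the UHRF1 antagonist, rested most on a single library. It had 194 and 18 counts (12.4 and 1.51 CPM) with random shRNA and 32 and 34 counts (2.01 and 2.41 CPM) with MERVL shRNA. Random shRNA replicate 2 was the lowest of the 4, below both MERVL shRNA libraries, and the random shRNA libraries differed 8.20-fold. The log2 fold change was -1.67 ± 0.85 with all libraries (edgeR adjusted p = 0.454) and 0.54 ± 0.49 without random shRNA replicate 1 (edgeR adjusted p = 0.521), so its sign turned with that library.

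Pramel6, the neighbour and functional relative of Pramel7, stood at 117 and 25 counts (7.46 and 2.10 CPM) with random shRNA and at 41 and 18 counts (2.58 and 1.28 CPM) with MERVL shRNA. Again only random shRNA replicate 1 was high, 3.56-fold above replicate 2, which lay between the MERVL shRNA libraries. The log2 fold change was -1.31 ± 0.66 (edgeR adjusted p = 0.448), and -0.11 without random shRNA replicate 1 (edgeR adjusted p = 0.92).

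**Figure D2:**
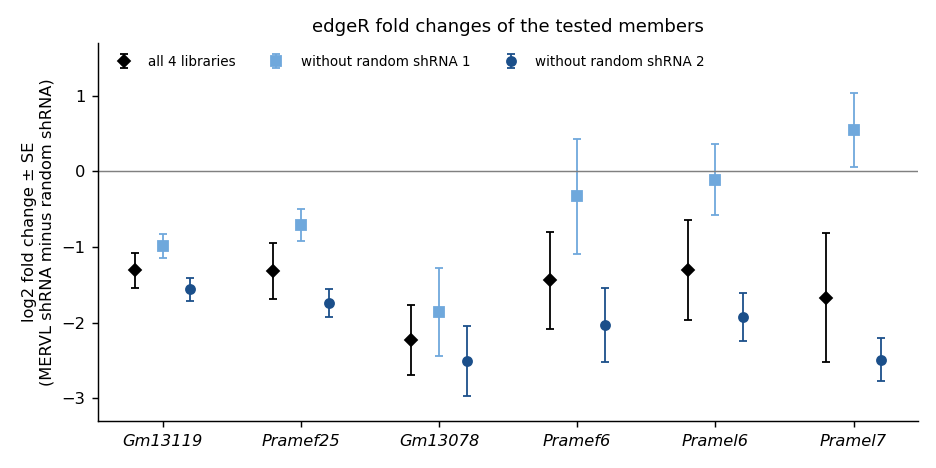
Log2 fold change (MERVL shRNA minus random shRNA) with its SE from edgeR for the 6 tested members, with all 4 libraries and without each random shRNA library. Gm13119, Pramef25 and Gm13078 lie at -0.71 or lower in each fit, Pramef6 and Pramel6 come to -0.33 and -0.11 without random shRNA replicate 1, and Pramel7 turns to 0.54.

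Per kb of exon, the order of mean level with random shRNA was Gm13119 (15.4 CPM per kb), Pramef25 (9.85), Pramel7 (3.25), Pramel6 (2.29), Gm13078 (1.49) and Pramef6 (0.868). Gm13057 and Gm13043 have no place in this order, because their counts cannot be told apart. Within each random shRNA library Gm13119 (18.4 and 12.4 CPM per kb) was above Pramef25 (13.2 and 6.49), and Pramef25 above Pramel7. The order of Pramel7, Pramel6 and Gm13078 came from random shRNA replicate 1 (5.80, 3.58 and 1.82). In replicate 2 it was reversed (0.707, 1.006 and 1.155). With MERVL shRNA, Gm13119 (6.72 and 5.73 CPM per kb) and Pramef25 (4.56 and 3.33) were again the highest, with Gm13119 above Pramef25 in each library. Gm13078 was above Pramef6 in each random shRNA library. With MERVL shRNA it was above in replicate 1 alone (0.358 and 0.270 against 0.316 and 0.340 CPM per kb).

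Set beside other RNAs of the 2-cell-like state, the summed chromosome 4 members had the smallest ratio between the random shRNA libraries of the 5 sums compared. Their sum, of which Gm13119 is the largest share, was 1.67-fold higher in random shRNA replicate 1 than in replicate 2. That ratio was 3.25 for MERVL, 3.74 for the summed Zscan4 genes (Zscan4b to Zscan4f), 4.94 for Tcstv1 and Tcstv3, and 5.50 for Pramel6 and Pramel7. Single genes did not keep this order: the ratio was 3.12 for Pramef6 and 2.04 for Pramef25, but 2.35 for Duxf3 and 2.38 for Ubtfl1. These differences were not tested. The separation of the groups followed another order: the lower random shRNA library was above the higher MERVL shRNA library by 2.97-fold for the Tcstv genes, 1.75-fold for the chromosome 4 members, 1.25-fold for the Zscan4 genes and 1.23-fold for MERVL, whereas for Pramel6 and Pramel7 the ratio was 0.786.

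**Figure D3:**
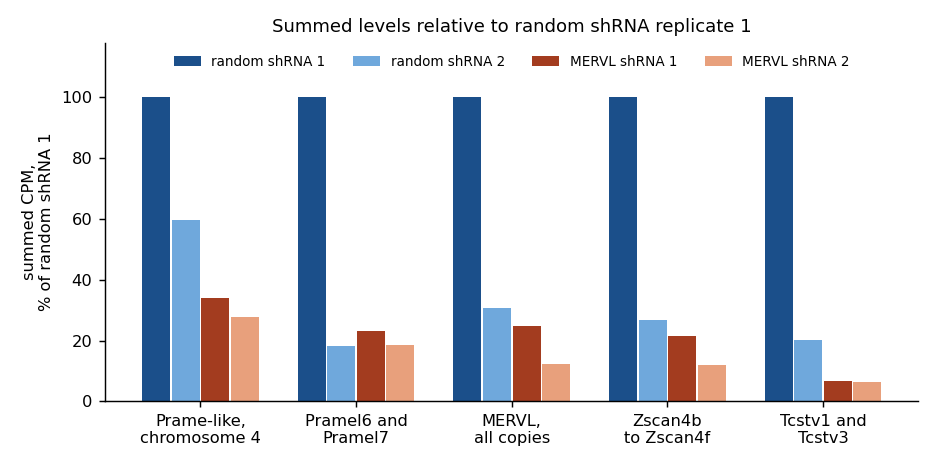
Summed CPM of 5 gene or element sets in each library, as a percentage of random shRNA replicate 1; the axis starts at 0. Random shRNA replicate 2 reaches 59.7% for the chromosome 4 members but 30.8% for MERVL, 26.7% for the Zscan4 genes, 20.2% for the Tcstv genes and 18.2% for Pramel6 and Pramel7.

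Of 31 other genes named for the 2-cell-like state, 25 were in the table and 23 were tested. All 23 had a negative log2 fold change (51.4% of features), with a median of -2.01, beside -0.01 over all features tested. Of the 23, 22 were lower in both MERVL shRNA libraries (24% of features), and all 23 were higher in random shRNA replicate 1 than in replicate 2 (50.1% of features). The list was drawn up with earlier results of these data known. A gene can also pass the filter through the group where it is higher, so neither these counts nor the median support a difference. The edgeR test called 0 of the 23, with 22 lower at an unadjusted p under 0.05 (8.92% of features), DESeq2 called 9 lower (1.11%) and limma-voom 0. The edgeR count was 22 with no filter (3.76% of features called lower), 16 when random shRNA replicate 1 was left out (7.64%) and 23 when its replicate 2 was (17.9%). Duxf3, which encodes DUX, stood at 6.86 and 2.92 CPM with random shRNA and at 0.835 and 1.25 CPM with MERVL shRNA. The other 3 of the 4 smallest p were those of Tcstv1 (log2 fold change -5.56 ± 1.14), Ubtfl1 (-2.53 ± 0.53) and Tmem92 (-2.75 ± 0.68), and the values were -2.25 ± 0.60 for Tcstv3 and -2.30 ± 0.75 for Zfp352, with edgeR adjusted p-values of 0.316 to 0.329. For Zscan4c, a telomere and genome stability factor, the values were 438.3 and 123.9 against 101.3 and 53.8 CPM. The 5 markers of 2-cell-like cells are all in this list too, so they add no separate count. For 5 of these 5 both MERVL shRNA values lay below both random shRNA values (21.2% of features with any count). Their sums were 798.2 and 207.5 CPM against 169.2 and 95.1 CPM, and their part in the values of the members was not tested.

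No partner or target of the PRAMEL7 pathway passed the main edgeR test, which called only 0.00612% of all features. That test used all 4 libraries, the filter on low counts and no replicate term. All 17 genes of that list found in the table were tested, edgeR called 0 of them, and at an unadjusted p under 0.05 there were 3 lower (8.92% of features) and 1 higher (4.69%). DESeq2 called Dnmt3l lower (1.11% of features) and Tet2 higher (0.46%), and limma-voom called 0. With no filter edgeR called Dnmt3l and Uhrf2 lower (3.76% of features) and Tet2 higher, among 1293 features called in either direction. With a replicate block it called Dnmt3l lower (3.84% of features) and Tet2 higher, among 738 features called. On the deposited scores, whose spread between replicates is not that of the counts, limma called 8 of the 17 lower, Uhrf1 among them (14.5% of features), and 3 higher (13.1%). In the main edgeR fit the median log2 fold change of the 17 was 0.03. Both MERVL shRNA values were below both random shRNA values in 8 of the 17 and above both in 5. Of all 16353 features tested, 3929 and 3627 had these orders. Uhrf1, the protein target of PRAMEL7, stood at 410.4 and 331.5 CPM with random shRNA and at 299.0 and 323.1 CPM with MERVL shRNA, which is a log2 fold change of -0.25 ± 0.17 (edgeR adjusted p = 0.568). Cul2, the scaffold of its ubiquitin ligase, had 0.08 ± 0.14 (edgeR adjusted p = 0.855). Its RNA overlapped between the groups, at 105.3 and 118.3 against 119.8 and 116.0 CPM. The 4 genes with the smallest p were Dnmt3l, a cofactor of de novo DNA methylation (-0.75 ± 0.14), Uhrf2, the paralogue of Uhrf1 (-0.57 ± 0.14), the DNA demethylase Tet2 (0.77 ± 0.20) and Socs3, a feedback target of LIF and STAT3 (-0.34 ± 0.14), with edgeR adjusted p-values of 0.288 to 0.360. In these 4 the random shRNA libraries differed by at most 1.40-fold. UHRF1 is controlled by PRAMEL7 as a protein, which RNA does not measure.

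Most of the wider family was too low to test. Of 34 other genes with a Prame or Oog name or synonym, 1 of them the antisense RNA Pramef12os, 7 were at 0 in each library and 8 passed the filter. The edgeR test called 0 of these 8, with 3 lower at an unadjusted p under 0.05 (8.92% of features), and DESeq2 called 1 lower, Gm12794 (1.11%), and limma-voom 0. Their median log2 fold change was -0.34. Pramef12 (RefSeq Pramel13) was the most abundant family gene at 48.0 and 51.5 CPM with random shRNA and 40.9 and 46.7 CPM with MERVL shRNA, which is a log2 fold change of -0.18 ± 0.14. Pramef8 was at 20.9 and 15.4 against 17.5 and 16.1 CPM. Log2 fold changes were 0.26 ± 0.30 for Gm13128, -0.50 ± 0.39 for Pramel1 and -0.12 ± 0.35 for Pramef17, and none of these 5 passed (edgeR adjusted p 0.639 to 0.918). Gm12794 (RefSeq Pramel19) stood at 30.0 and 9.28 CPM with random shRNA and 5.33 and 2.92 CPM with MERVL shRNA. Its log2 fold change was -2.25 ± 0.58 (edgeR adjusted p = 0.329), and its random shRNA libraries differed 3.23-fold, beside 3.25-fold for MERVL. The others with a small unadjusted p, named here after their values were seen, were Pramel3 and Gm7978. Pramel3 was close to the limit of detection, at 10.9 and 8.35 estimated counts with random shRNA and 1.83 and 0.09 with MERVL shRNA. These were 0.698 and 0.700 against 0.115 and 0.00639 CPM (-3.22 ± 0.89, edgeR adjusted p = 0.329). Gm7978 stood at 5.46 and 1.30 against 1.02 and 0.988 CPM (-1.76 ± 0.71, edgeR adjusted p = 0.359). Of 26 of these genes with a promoter window, 4 held a TGATTNAAT match (0.658% of all windows), and Gm12794 was not among them. The 4 were C87499, Oog4, Gm13084 and Oog2, and none of them passed the filter. Oog4, Gm13084 and Oog2 were at 0 in each library, and C87499 had 2 counts, in random shRNA replicate 1 alone.

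**Figure D4:**
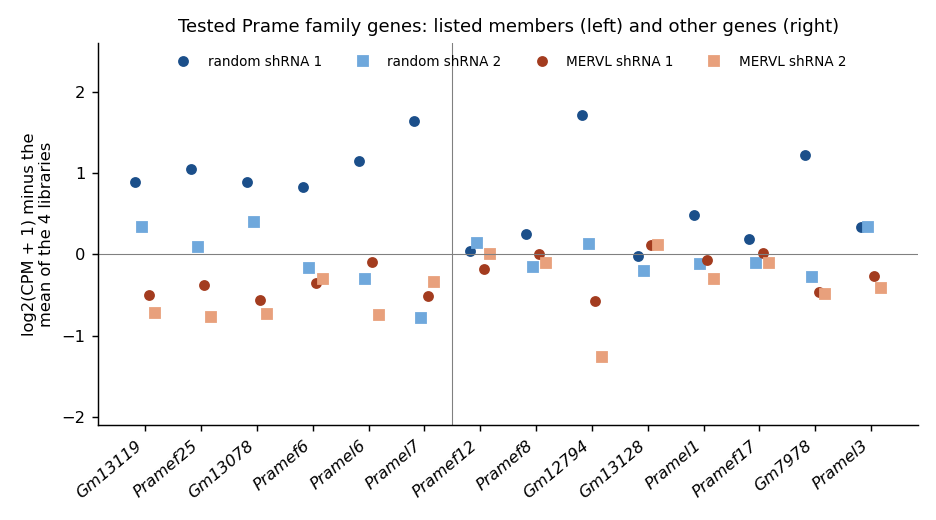
Log2(CPM + 1) of the 14 tested Prame family genes in each library, minus the gene's mean over the 4 libraries, with the 6 listed members left of the line and 8 other family genes right of it. Random shRNA replicate 1 is the highest library for each listed member and for Gm12794, Gm7978, Pramel1, Pramef8 and Pramef17. For Pramef12, Pramef8, Gm13128 and Pramef17 the 4 libraries lie close together around 0.

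The scores the authors deposited give another picture of the random shRNA libraries. For the 7 members listed there (Gm13043 is not listed), random shRNA replicate 1 was 0.812 to 0.930 times replicate 2, whereas in CPM it was 1.48 to 8.20 times replicate 2. Pramel7 had scores of 56 and 61 with random shRNA and 32 and 37 with MERVL shRNA, and Pramel6 had 53 and 57 against 40 and 19. In both, the groups were apart in the scores and overlapped in the counts. Gm13119 had 426 and 480 against 206 and 174, apart in either table. On log2(score + 1), limma called 5 of the 7 lower (Gm13119, Gm13078, Pramef25, Pramef6 and Pramel7), where 14.5% of 17823 features were called lower. The log2 fold change was -1.25 ± 0.12 for Gm13119 (limma adjusted p = 0.0244) and -0.75 ± 0.12 for Pramel7 (limma adjusted p = 0.0308). The scores were not the counts times a single factor per library. In random shRNA replicate 2, 310 counts of Gm13119 had a score of 480 and 18 counts of Pramel7 a score of 61. In replicate 1, 605 and 194 counts had scores of 426 and 56. SEs and adjusted p-values of limma on the scores therefore measure the spread of the scores, not that of the counts. No source used here gives how the scores were made. The part of that step in the difference between scores and counts was not tested.

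**Figure D5:**
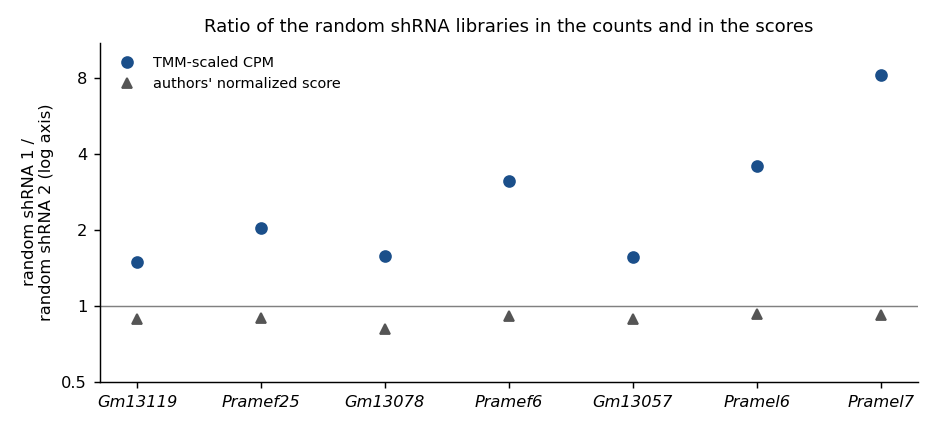
Ratio of random shRNA replicate 1 to replicate 2 (log axis) for the 7 members listed in both tables, from TMM-scaled CPM (circles) and from the authors' normalized scores (triangles), with a line at 1. Circles run from 1.48 for Gm13119 to 8.20 for Pramel7, and triangles from 0.812 to 0.930.

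Among 14500 other named genes with a mean of at least 1 CPM, the 5 whose pattern lay nearest that of the summed members were Gm4302, Kdm4dl, Dnah7c, Dcc and Gm21762. Nearness was the root mean square difference of centred log2(CPM + 1) over the 4 libraries and ran from 0.0281 for Gm4302 to 0.0912 for Gm21762. Gm4302 stood at 4.09 and 1.64 CPM with random shRNA and at 0.697 and 0.421 CPM with MERVL shRNA. The measure compresses genes at low CPM, and 4 libraries leave many genes with a similar pattern.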

How the data were processed

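RNA-seq of 2 random shRNA and 2 MERVL shRNA libraries was analysed; groups and replicate numbers come from the sample titles. Per the submitters' processing notes, reads went through Trim Galore and HISAT2 on mm10; versions, counting program and use of strand: not given in the sources used here. The authors deposited estimated counts for 45773 features (43496 Ensembl genes and 2277 MERVL copies), of which 19.1% to 20.8% per library were not whole. They also deposited a normalized score for 17823 features, made in a way not given in the sources used here. Symbols matched 42329 genes, and gene positions are from GENCODE M21 (GRCm38).

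Estimated counts were rounded and tested with the edgeR 4.0.16 quasi-likelihood F test (R 4.3.3; TMM, filterByExpr, no replicate term, 2-sided, Benjamini-Hochberg over all 16353 features, threshold 0.05), checked on simulated data. SEs derive from the F statistic. Alternatives were DESeq2 1.42.0, limma-voom (limma 3.58.1), limma on log2(score + 1), other scalings, filters and priors, genes alone, a replicate block and leaving out each library (on the features of the full fit). Sequences are from RefSeq (GRCm38.p6) and GENCODE transcripts. Members and lists were chosen with earlier results of these data known, and the motifs after the promoter windows were seen. Named genes are all members, the 5 nearest patterns, the 6 most abundant other family genes, the 4 smallest p of each list, and Zscan4c, Tcstv3, Zfp352, Uhrf1 and Cul2. The copy of MERVL nearest each member was not analysed here, since copies carry no position in the table.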

Additional observations from a re-analysis of the deposited data

How the results depend on the processing

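Each group had 2 libraries. Counts of calls moved with the setting, given here for all features, the members, the other Prame family genes, the 2-cell-like genes and the PRAMEL7 pathway genes in that order; with all 4 libraries edgeR gave 1, 0, 0, 0 and 0. They were 1293, 5, 3, 22 and 3 with no filter, 222, 1, 1, 9 and 2 with DESeq2, and 0 throughout with limma-voom. They were 4919, 5, 2, 17 and 11 on the deposited scores, whose spread between replicates is not that of the counts. The replicate block gave 738, 3, 1, 22 and 2, with 3.84% of features lower. Same-numbered libraries share only a number: their deviations had a Pearson r of 0.223 across 16353 features, which are not independent, and 2 pairs are too few to show a pairing. With a library left out, the counts ran from 2 to 5404, 0 to 6, 0 to 4, 0 to 23 and 0 to 12, highest without random shRNA replicate 2. Leaving out random shRNA replicate 1 gave 2384, 3, 1, 16 and 4, and leaving out a MERVL shRNA library gave 2, 0, 0, 0 and 0. The called members were lower each time. The median log2 fold change of the members ran from -1.98 to -0.52 and the log2 ratio of their summed levels from -1.80 to -0.81 with a library left out, in both nearest to 0 without random shRNA replicate 1. Of the log2 fold changes of members, only that of Pramel7 reversed: with a library left out it ran from -2.49 to 0.54, the latter without random shRNA replicate 1. Scalings, the CPM filter, a robust prior and genes alone kept the direction of each member they tested and called none; the CPM filter removed Pramef6. Counts of members whose groups did not overlap and their summed levels were recomputed for scalings, scores and left-out libraries alone. DESeq2 gave no adjusted p for Pramef6.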

Other observations

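Among tested genes with a promoter window, 3 held at least 2 matches of TGATTNAAT (Gm13119, Psap and Ripor2), with a median log2 fold change of -0.36. For the 38 tested genes with a single match, Pramel6 among them, the median was -0.29, and in 17 (44.7%) both MERVL shRNA values were below both random shRNA values. The corresponding values were -0.01 and 22.5% for the 10957 genes with no match. The classes were set after the windows of the members had been seen, and the difference between them was not tested.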
